A study of Mus musculus with 8 samples.

Results

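The genes described here encode 10 antioxidant enzymes and their thiol partner: the superoxide dismutases Sod1 and Sod2, the catalase Cat, the glutathione peroxidases Gpx1 and Gpx4, the peroxiredoxins Prdx1, Prdx2 and Prdx6, thioredoxin (Txn1) and its reductase Txnrd1. They were taken by gene symbol, as a set chosen with earlier results of these data known, and all 10 were found among the genes shared by the 8 count matrices. Transcripts were counted by droplet single-cell RNA-seq in thymic epithelial cells (TEC), the stromal cells of the mouse thymus that guide T cell development. The 8 libraries fell into 6 groups, all from wild-type C57BL/6 mice: total TEC of E13.5 embryos, cTEC of E15.5 embryos, of E17.5 embryos and of newborn mice (NB, 0 to 2 days old), with 1 library each, and adult cTEC and adult mTEC (4 to 6 weeks old), with 2 libraries each. Embryonic days E13.5 to E17.5 count from conception. Cortical cells (cTEC) were sorted as EpCAM+ CD45- Ly51+ UEA-1-, medullary cells (mTEC) as EpCAM+ CD45- Ly51- UEA-1+, and the E13.5 cells as EpCAM+ CD45- without the lineage gate, so that the E13.5 library was not restricted to the cortical lineage. The first data set held 5 libraries (E13.5, E15.5, NB and replicate 1 of both adult groups) and the second held 3 (E17.5 and replicate 2 of both adult groups). Embryonic thymi were dissociated with trypsin, whereas newborn and adult thymi were digested with Liberase and enriched on Percoll. Fetal age and dissociation therefore cannot be told apart.

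The enzymes act in series. Superoxide dismutases turn superoxide into hydrogen peroxide, Sod1 mainly in the cytosol with copper and zinc and Sod2 in the mitochondrial matrix with manganese. Hydrogen peroxide is then broken down by catalase in peroxisomes, by glutathione peroxidases at the expense of glutathione, and by peroxiredoxins. Prdx1 and Prdx2 draw on thioredoxin, which Txnrd1 recycles with NADPH, whereas Prdx6 is reduced by glutathione. Gpx4 reduces lipid hydroperoxides in membranes and holds back ferroptosis. Thymic stroma is known for low catalase activity, which has been linked to oxidative damage and to the early loss of thymic tissue with age. Gpx1, Gpx4 and Txnrd1 are selenoproteins: their messages carry an in-frame TGA codon that is read as selenocysteine, the residue at the active site. The other 7 are not selenoproteins.

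The selenocysteine codons are shown because they mark the active sites of the 3 selenoproteins among the members, of which Gpx1 was called between the adult lineages below. The stretches are coding sequence from GENCODE vM21 (GRCm38, plus strand), 5′ to 3′, with the selenocysteine codon in capitals.
Gpx1: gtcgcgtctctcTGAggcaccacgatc
Gpx4: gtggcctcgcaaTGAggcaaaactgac
Txnrd1: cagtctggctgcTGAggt
The Gpx1 stretch lies at chr9:108339439-108339465 in exon 1 of 2, where the TGA is codon 47 of 201. The Gpx4 stretch lies at chr10:80054725-80054751 in exon 3 of 7, where it is codon 129 of 253 in the longer coding sequence. The Txnrd1 stretch lies at chr10:82896025-82896042 in exon 14 of 14, and its TGA is codon 498 of 499, next to the last.

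Many antioxidant genes are controlled by NRF2 (Nfe2l2), a transcription factor that binds antioxidant response elements. The core letters TGACNNNGC were searched on both strands in the RefSeq promoter windows (GRCm38.p6, 250 bases before and 50 after each start), in which 9 of the 10 genes had an entry; Prdx6 had none. Of the 9, Sod1, Prdx1 and Txnrd1 held a match, against 14.0% of the 27025 genes with a window and 12.4% of all 32851 windows. The matches are printed because these 3 genes can be followed beside the others below; all 3 lay in reverse orientation, and capitals mark the matched letters.
Sod1: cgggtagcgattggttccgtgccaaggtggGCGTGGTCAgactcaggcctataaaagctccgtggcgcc
Prdx1: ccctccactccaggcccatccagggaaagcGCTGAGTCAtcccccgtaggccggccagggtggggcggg
Txnrd1: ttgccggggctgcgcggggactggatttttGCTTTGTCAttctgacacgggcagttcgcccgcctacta
The Sod1 stretch is chr16:90220676-90220744, the Prdx1 stretch chr4:116685436-116685504 and the Txnrd1 stretch chr10:82859084-82859152, all on the plus strand. Txnrd1 had 3 windows, of which only the one at the start shown here held a match. A match describes letters in the window and not occupancy. The other members lie on chromosomes 2 (Cat), 17 (Sod2), 9 (Gpx1), 10 (Gpx4), 8 (Prdx2), 1 (Prdx6) and 4 (Txn1).

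Of 28334 deposited cells, 25750 passed limits of 5% mitochondrial UMIs and 5000 genes, and 25434 were epithelial-like after clusters with markers of other cell types were set aside (124 parathyroid-like cells at E13.5 and 169 thymocyte-like cells in NB were the largest). A cluster of 112 cells led by the thyroid genes Hhex, Nkx2-1 and Pax8, of which 107 were E13.5 cells, was kept, as it held too few of the thyroid markers to be set aside. The summed level of these markers was 79.8 CPM at E13.5 and 0.0864 to 1.39 CPM in the later cTEC libraries. The adult cTEC libraries were the shallowest, with 492 and 535 cells and 2151147 and 4040026 UMIs against 14478339 to 89998087 in the other 6 libraries. At least 1 UMI of Psmb11 or Prss16, which define cTEC, was found in 99.4% to 99.9% of E15.5, E17.5 and NB cells, in 81.6% at E13.5, in 66.1% and 79.6% of adult cTEC and in 397 of 1585 and 1659 of 5615 adult mTEC. Libraries shared up to 84 cell barcodes (E17.5 of 9066 and adult mTEC replicate 2 of 7023), and pairs of libraries from different data sets shared up to 49. Cells with a high proliferation score made up 77.4% of E13.5 cells and 30.1%, 14.6% and 11.5% of those of the E15.5, E17.5 and NB libraries. Levels below are UMIs per 1000000 (CPM) summed over the epithelial-like cells of a library. One UMI marks 1 captured molecule at its 3′ end, so CPM counts molecules without regard to transcript length.

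The 10 genes together took 4196 to 5943 CPM, lowest in adult cTEC replicate 1 and highest in NB. Txn1 ranged from 699 to 1893 CPM, Prdx1 from 871 to 1475 CPM and Gpx4 from 639 to 1327 CPM over the libraries, while Cat was the least abundant in each, at 13.9 to 31.2 CPM.

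**Figure D1:**
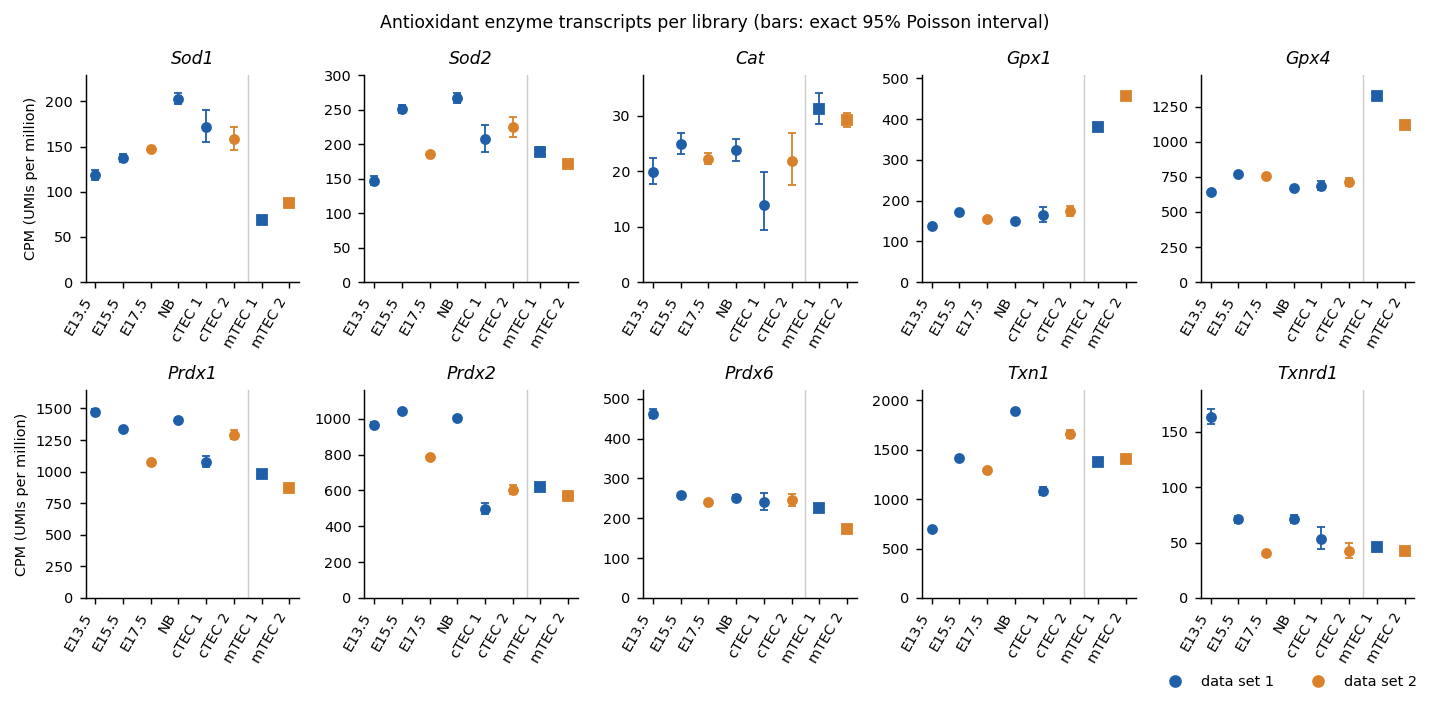
CPM of the 10 genes (vertical axis of each panel, from 0) in the 8 libraries, with exact 95% Poisson intervals; circles are TEC and cTEC libraries, squares mTEC, blue data set 1 and orange data set 2. Gpx1 and Gpx4 are highest in both adult mTEC libraries, Sod1 is lowest there, and Txnrd1 and Prdx6 are highest at E13.5.

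The first question was how the enzymes varied with age in the cortical line, from E13.5 TEC to adult cTEC. No member passed the test for a trend: across the 6 libraries, edgeR's quasi-likelihood test with stage rank and data set as terms called 7.58% of 14341 genes (4.78% rising and 2.8% falling) at a Benjamini-Hochberg adjusted p under 0.05, and 0 of the 10 members. By the same test 1 member, Txnrd1, had an unadjusted p under 0.05, as it had in DESeq2, which also called 0 members and 19.8% of all genes. What the members showed were differences between single libraries, which have no replicate below adulthood and are given as levels.

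Txnrd1, the reductase that recharges thioredoxin, stood at 164 CPM in E13.5 TEC, then at 71.1, 40.4 and 71.3 CPM in E15.5, E17.5 and NB cTEC, and at 53.0 and 42.3 CPM in adult cTEC. E13.5 was the highest, 2.30-fold above the next library, while the adult replicates differed by 1.25-fold. The later libraries had no order by age. The fitted slope was -0.28 ± 0.10 (SE) on the log2 scale per stage step, with an edgeR adjusted p of 0.15. After each cell was thinned to 2000 UMIs, 27.6% of E13.5 cells held a Txnrd1 UMI, against 7.09% to 12.8% in the later cTEC libraries. At 1000 UMIs these shares were 14.9% and 2.82% to 6.69%.

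Prdx6, a peroxiredoxin that also repairs oxidised phospholipids, followed the same order at its top: 463 CPM at E13.5 and 258, 242, 251, 241 and 246 CPM in E15.5, E17.5, NB and the adult cTEC replicates. The 5 later libraries were close together, and E13.5 was 1.80-fold above the highest of them. Its thinned share of cells was 58.1% at E13.5 and 37.2% to 39.3% afterwards. The slope of -0.17 ± 0.09 had an edgeR adjusted p of 0.27. Both differences between E13.5 and E15.5 were also there among cells of low proliferation score, in which Txnrd1 was at 122 against 62.8 CPM and Prdx6 at 469 against 259 CPM. Without the thyroid-led cluster E13.5 stood at 165 CPM for Txnrd1 and 467 CPM for Prdx6. The E13.5 library also held 253 cells of a cluster led by Krtdap and Krt5. In the mTEC I-like clusters of adult mTEC described below, Prdx6 was at 347 to 439 CPM and Txnrd1 at 58.9 to 68.9 CPM. The part of the lineage mix in the E13.5 levels was not tested.

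Txn1, the disulfide reductase that Prdx1 and Prdx2 draw on, ran the other way at the same step. It was lowest at E13.5 (699 CPM) and stood at 1420, 1297 and 1893 CPM in E15.5, E17.5 and NB cTEC and at 1081 and 1662 CPM in adult cTEC. E15.5 was 2.03-fold above E13.5. The adult replicates differed by 1.54-fold, so that the later libraries could not be ordered beyond that spread. In a cluster of 1006 E17.5 cells that carried haemoglobin transcripts, Txn1 was at 653 CPM, against 1377 in the other 7344 cells of the library; Psmb11 was at 739 against 1565 CPM there.

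Among the superoxide dismutases, Sod1 was at 118, 138, 147 and 203 CPM from E13.5 to NB and at 172 and 159 CPM in adult cTEC. Sod2 was at 147, 251, 185 and 267 CPM from E13.5 to NB and at 207 and 224 CPM in adult cTEC. Both were lowest at E13.5 and highest in NB, by 1.72-fold for Sod1 and 1.82-fold for Sod2, and their adult replicates differed by 1.08-fold each. The slopes, 0.15 ± 0.09 for Sod1 and 0.11 ± 0.11 for Sod2, had edgeR adjusted p-values of 0.34 and 0.58.

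Prdx2, a cytosolic peroxiredoxin abundant in red cells, was lowest in the adult: 966, 1041, 789 and 1004 CPM from E13.5 to NB, then 497 and 605 CPM. The adult libraries did not overlap with the younger ones, and NB was 2.02-fold above adult replicate 1 of the same data set. In data set 2, E17.5 was at 789 CPM against 605 CPM in adult replicate 2. How many of all genes had such a gap was not counted. Its slope was -0.18 ± 0.12, with an edgeR adjusted p of 0.36. The summed level of erythroid markers was 44.5 CPM at E13.5, 349 at E17.5, and 0.837 to 2.23 in E15.5, NB and adult cTEC. Prdx1, its close relative, varied less: 1475, 1336, 1079 and 1408 CPM from E13.5 to NB and 1078 and 1293 CPM in adult cTEC, a range of 1.37-fold.

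The peroxide-removing glutathione peroxidases hardly varied along the cortical line. Gpx1 lay between 137 CPM (E13.5) and 174.5 CPM (adult replicate 2), a range of 1.28-fold, and Gpx4 between 639 CPM (E13.5) and 769 CPM (E15.5), a range of 1.20-fold. Cat was at 19.9, 24.9, 22.2 and 23.8 CPM from E13.5 to NB and at 13.9 and 21.8 CPM in adult cTEC. The lowest value, in adult replicate 1, rested on 30 UMIs, with an exact 95% Poisson interval of 9.41 to 19.9 CPM that covers counting error only. A thinned share of 2.11% to 4.31% of cortical cells held a Cat UMI. The adult replicates differed by 1.56-fold, so no fall of catalase with age was detectable at this depth.

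**Figure D2:**
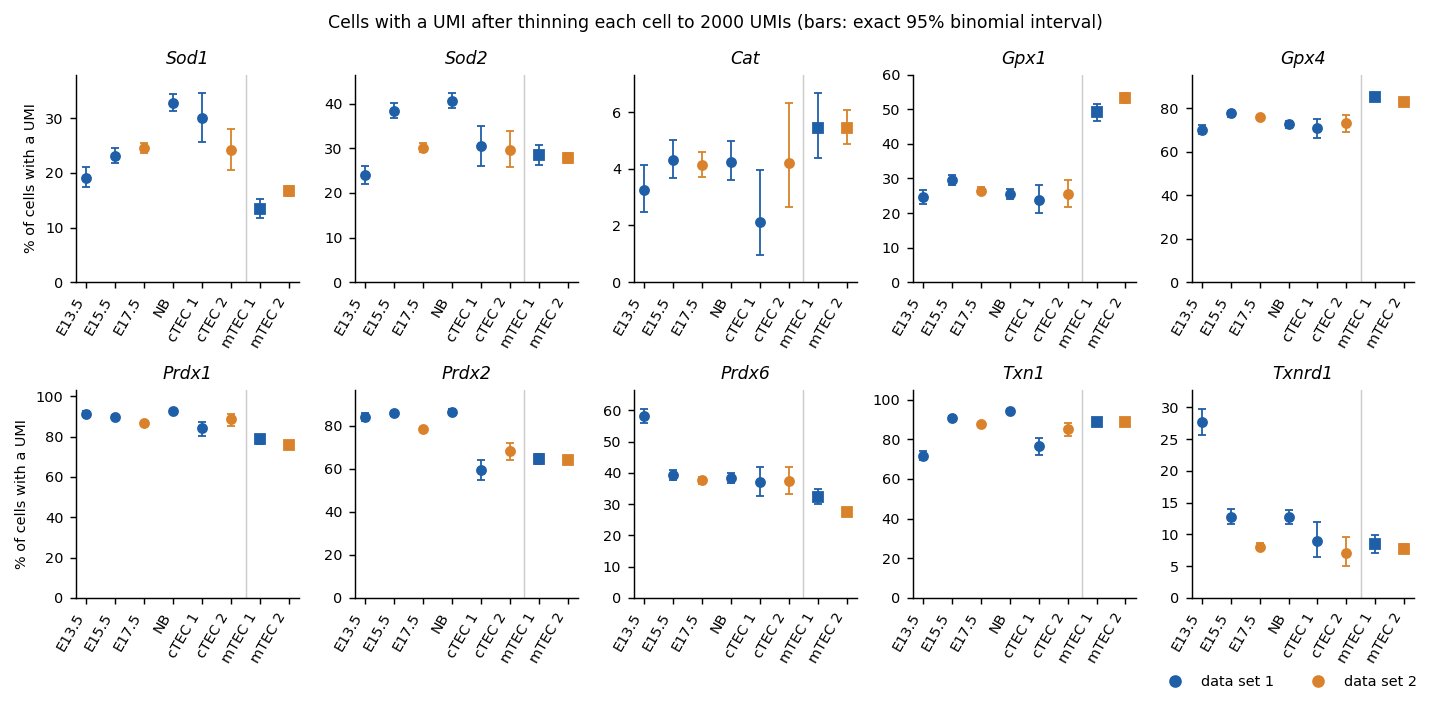
Percentage of cells with at least 1 UMI of each gene (vertical axis, from 0) after each cell was thinned to 2000 UMIs, per library, with exact 95% binomial intervals; colours and shapes are those of the plot of CPM. The share of cells with Txnrd1 is 27.6% at E13.5, and that of Gpx1 is 49.1% and 53.3% in adult mTEC.

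Lists of genes around these enzymes were read against the same background of 4.78% rising and 2.8% falling. Of 28 NRF2 regulators and targets tested, 6 rose and 0 fell, with a median slope of 0.18 against -0.00032 over all genes tested. They included Nfe2l2 itself, which stood at 32.7, 42.0, 79.9 and 82.1 CPM from E13.5 to NB and at 135 and 107 CPM in adult cTEC (slope 0.45 ± 0.09, edgeR adjusted p = 0.035), Sqstm1, an autophagy receptor that competes for the NRF2 inhibitor Keap1 (slope 0.71, adjusted p = 0.014), and Maff, a small partner of NRF2 (slope 0.78, adjusted p = 0.023). Of 17 other thioredoxin and peroxiredoxin genes, 1 rose: Txnip, which binds and inhibits thioredoxin, at 16.7, 22.2, 26.6 and 73.3 CPM from E13.5 to NB and 169 and 97.8 CPM in adult cTEC (slope 0.85 ± 0.08, adjusted p = 0.0057). Of 31 glutathione genes tested, 3 rose and 1 fell. Hagh, a glyoxalase that returns glutathione, rose (slope 0.77, adjusted p = 0.0072), and Gstm5, a glutathione transferase, fell from 140 CPM at E13.5 to 27.4 and 28.2 CPM in adult cTEC (slope -0.56, adjusted p = 0.018). In the remaining lists, 1 of 14 iron, haem and metallothionein genes rose (Slc11a2, an iron importer, slope 0.49), 4 of 15 sources of reactive oxygen rose (Xdh, xanthine dehydrogenase, slope 1.51, and Aox1, Ncf1 and Rac2, named after their values were seen), 1 of 27 peroxisome genes rose (Phyh, slope 0.41), and 0 of 6 selenoprotein synthesis genes and 0 of 5 copper genes passed.

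Markers of dissociation stress moved with the same axis: 17 of 20 rose, and their summed level was 1369 to 1951 CPM in the 3 embryonic libraries and 13304 to 24004 CPM in NB and adult cTEC. Of 4 erythroid markers tested 3 fell, as did 24 of 42 S phase and 29 of 52 G2M genes. Markers of some other cell types rose. Of 7 myeloid entries tested, 4 rose (Lyz2, Cd14, Csf1r and Fcer1g), with a summed level of 1.51 to 7.001 CPM from E13.5 to NB and of 285 and 52.7 CPM in adult cTEC. Of 10 thymocyte markers 5 rose, with sums of 6.37 to 20.2 CPM from E13.5 to NB and of 47.4 and 115 CPM in adult cTEC, and of 7 mTEC I markers 4 rose, with sums of 278 to 935 CPM and then of 6485 and 1479 CPM. Ncf1 and Rac2, which rose among the sources of reactive oxygen, are leukocyte genes. The part of these markers in the trends was not tested. The trend test itself leaned on the adult libraries: 16 genes were called without adult cTEC replicate 1 and 456 without adult cTEC replicate 2, and 0 members in each case.

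The second question was how adult cTEC and adult mTEC differed. The clearest difference was Gpx1, the main cytosolic glutathione peroxidase, with 165 and 174.5 CPM in the adult cTEC libraries and 381 and 458 CPM in the adult mTEC libraries. The groups did not overlap, and mTEC were 2.30-fold higher in data set 1 and 2.63-fold higher in data set 2. Sod1 went the opposite way, with 172 and 159 CPM in cTEC and 68.4 and 87.2 CPM in mTEC, 2.51-fold and 1.82-fold higher in cTEC. By edgeR with data set as a term, these were the 2 members called: Gpx1 with a log2 difference (cTEC minus mTEC) of -1.37 ± 0.39 (SE) and an adjusted p of 0.0060, and Sod1 with 1.02 ± 0.38 and an adjusted p of 0.033. The same test called 31.7% of 15626 genes (10.9% higher in cTEC and 20.8% higher in mTEC), so 2 of 10 was not above that background. With 1 library left out, the data set term had to be dropped as well, and only 1 lineage kept a pair of libraries. In these fits Gpx1 ranged from -1.61 to -1.22 with adjusted p-values of 0.050 to 0.23, and Sod1 from 0.73 to 1.21 with adjusted p-values of 0.086 to 0.51, each in its own direction in all 4 fits and neither called in any.

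**Figure D3:**
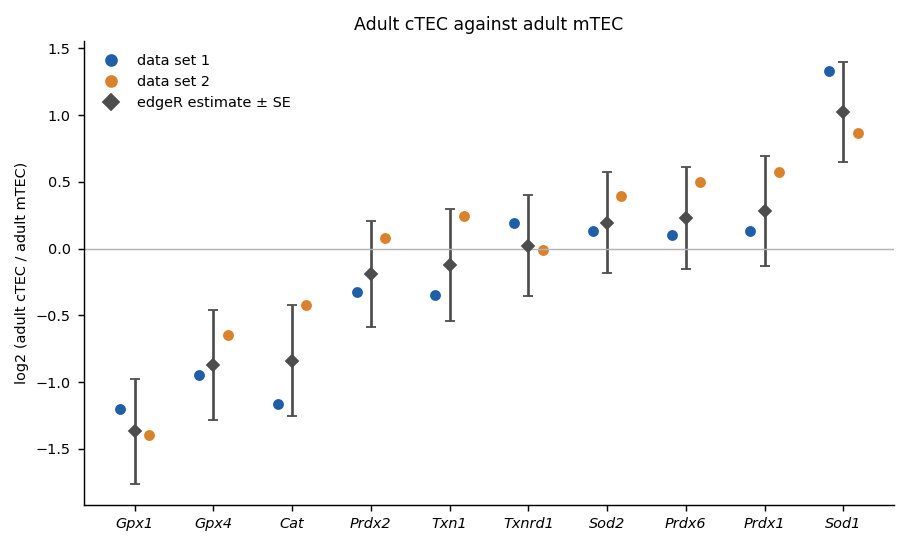
Log2 ratio of adult cTEC to adult mTEC (vertical axis) for the 10 genes, within data set 1 (blue) and data set 2 (orange), with the edgeR estimate ± SE (grey). Gpx1, Gpx4 and Cat lie below 0 and Sod1 above 0 in both data sets, while Prdx2, Txn1 and Txnrd1 change sign between them.

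Gpx4 and Cat were also higher in both mTEC libraries than in either cTEC library, without passing the test. Gpx4 was at 688 and 713 CPM in cTEC and 1327 and 1118 CPM in mTEC (log2 difference -0.87 ± 0.41, edgeR adjusted p = 0.11). DESeq2, which called 16.5% of genes, called it with an adjusted p of 0.023. Cat was at 13.9 and 21.8 CPM in cTEC and 31.2 and 29.2 CPM in mTEC (-0.84 ± 0.42, adjusted p = 0.13). The fold in mTEC was 2.24 in data set 1 and 1.34 in data set 2.

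Sod2, Prdx1 and Prdx6 were higher in both cTEC libraries than in either mTEC library, by smaller steps. Sod2 was at 207 and 224 CPM against 189 and 171 CPM, Prdx1 at 1078 and 1293 CPM against 982 and 871 CPM, and Prdx6 at 241 and 246 CPM against 225 and 174 CPM. Their log2 differences were 0.19 ± 0.38, 0.28 ± 0.41 and 0.23 ± 0.38, with edgeR adjusted p-values of 0.75, 0.66 and 0.70. Prdx2, Txn1 and Txnrd1 overlapped between the lineages and had opposite signs in the 2 data sets. The libraries of 7 members did not overlap between lineages, as was true of 67.1% of 20278 genes with at least 10 counts in the adult libraries; 4 of the 10 members were wholly higher in cTEC and 3 in mTEC, against 25.1% and 42.0% of those 20278 genes. With all cells thinned to 2000 UMIs, Gpx1 was found in 23.9% and 25.5% of adult cTEC and in 49.1% and 53.3% of adult mTEC, and Sod1 in 29.98% and 24.1% against 13.4% and 16.7%.

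Restricting adult cTEC to the 325 and 426 cells with a Psmb11 or Prss16 UMI gave -1.59 for Gpx1 (edgeR adjusted p = 0.0095) and 1.09 for Sod1 (adjusted p = 0.045). The dissociation stress list also differed between the lineages, with 9 of 20 genes higher in cTEC and summed levels of 24004 and 13956 CPM in cTEC and 11948 and 7054 CPM in mTEC. Erythroid markers moved the other way: 8 of 8 tested were higher in mTEC, with summed levels of 1.86 and 2.23 CPM in cTEC and 122 and 180.5 CPM in mTEC. Of the cell cycle lists, 16 of 42 S phase and 10 of 52 G2M genes were higher in mTEC, with 1 G2M gene higher in cTEC. Of 9 thymocyte and 8 endothelial markers 2 each were higher in cTEC, and of 6 mesenchymal markers 1 was higher in cTEC and 2 in mTEC, with summed levels of 511 and 318 CPM in cTEC and 99.7 and 69.1 CPM in mTEC. The part of these lists in the member differences was not tested.

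Around the members, counts are again set against 10.9% of all genes higher in cTEC and 20.8% higher in mTEC. Of 32 glutathione genes tested, 6 were higher in cTEC and 8 in mTEC, with a median log2 difference of -0.08 against -0.14 over all genes. Of the other glutathione peroxidases, those higher in mTEC included Gpx3, the secreted enzyme, at 68.3 and 40.6 CPM in cTEC and 301 and 183 CPM in mTEC (-2.23, edgeR adjusted p = 2.0e-05), and Gpx2, the gut enzyme, at 6.97 and 4.46 CPM in cTEC and 22.4 and 27.7 CPM in mTEC (-2.25, adjusted p = 0.00018). Hagh was also higher in mTEC (-2.28, adjusted p = 3.2e-05). On the cTEC side were Gsta4 and Gstm2, glutathione transferases that clear lipid aldehydes and other electrophiles (2.12 and 2.75), and Gpx8 of the endoplasmic reticulum (41.8 and 64.6 CPM against 17.4 and 7.17 CPM). Of the 17 other thioredoxin and peroxiredoxin genes, 3 were higher in cTEC and 2 in mTEC. Prdx3, the mitochondrial peroxiredoxin, was at 49.7 and 73.3 CPM in cTEC and 217 and 119 CPM in mTEC (-1.47, adjusted p = 0.0050), and Prdx4 of the endoplasmic reticulum differed by -0.995 (adjusted p = 0.038), whereas Txnip and Sesn3 were higher in cTEC (1.76 and 1.63).

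Of 28 NRF2 genes, 4 were higher in cTEC and 6 in mTEC, 10 in all against 31.7% of all genes called. Nqo1, a quinone reductase and a standard NRF2 target, was at 132 and 175 CPM in adult cTEC and 20.8 and 21.5 CPM in adult mTEC (2.78 ± 0.40, edgeR adjusted p = 4.2e-07), and Nfe2l2 itself was higher in cTEC (1.06, adjusted p = 0.026). Slc7a11, the cystine importer that feeds glutathione and Gpx4, was higher in mTEC (-2.19, adjusted p = 4.6e-05), as were Tkt (-2.62) and Abcc1 (-2.50). Of the iron, haem and metallothionein genes, 1 was higher in cTEC (Slc11a2, 1.84) and 2 in mTEC, Hmox1 among them (-1.09). Sephs2, which makes the selenium donor for selenoproteins, was at 32.5 and 37.1 CPM in cTEC and 135 and 151 CPM in mTEC (-2.11, edgeR adjusted p = 4.0e-05). It was the 1 that passed of 6 selenoprotein genes whose symbols were in the matrices (of 17 listed). The missing symbols were not looked up under older names, of which Selm (for Selenom) was in the matrices. The counts of this list cover these 6 genes alone in every comparison. Of 27 peroxisome genes, 1 was higher in mTEC. Of 5 copper genes tested, 1 was higher in cTEC (Dcxr, 1.22, edgeR adjusted p = 0.014).

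Of 15 sources of reactive oxygen tested, 9 were higher in mTEC and 1 (Xdh, 2.08) in cTEC, with a median log2 difference of -3.23 against -0.14 over all genes. The mTEC side was led by subunits of the phagocyte NADPH oxidase: Cyba at 175 and 71.3 CPM in cTEC and 1484 and 1637 CPM in mTEC (-3.87, edgeR adjusted p = 2.2e-08), Ncf1 (-4.37, adjusted p = 6.9e-08) and Ncf4 (-4.05, adjusted p = 1.0e-08). Myeloid markers moved with them: 4 of the list (Fcer1g, S100a8, Lyz2 and Adgre1) were higher in mTEC, and the summed level was 285 and 52.7 CPM in cTEC and 1195 and 1490 CPM in mTEC. S100a8 was at 0 and 1.73 CPM in cTEC and 730 and 911 CPM in mTEC, Lyz2 at 198 and 13.9 CPM against 371 and 443 CPM, and Adgre1 at 0 in both cTEC libraries against 5.59 and 9.80 CPM. The 6 markers that were not called (Csf1r, Cd68, Itgam, Itgax, Tyrobp and Cd14) lay between 0 and 37.2 CPM in cTEC and between 0.301 and 22.4 CPM in mTEC. Both adult populations were sorted as CD45-, and no cluster was named myeloid-like. In data set 1, S100a8 and S100a9 were leading genes of a cluster of 576 cells, of which 515 were adult mTEC. Cyba was a leading gene of a cluster of 362 adult mTEC, beside Aire and Fezf2. The part of myeloid RNA in these differences was not tested.

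The third comparison set cells of high proliferation score against cells of low score within each library, because the share of such cells fell with age. By edgeR with library as a block, 3 members were lower in the high class: Gpx1 (log2 difference -0.42 ± 0.12, adjusted p = 0.019), Sod2 (-0.46 ± 0.15, adjusted p = 0.034) and Cat (-0.42 ± 0.15, adjusted p = 0.047). This was 3 of 10, against 17.3% of 16902 genes called in that direction, 8.65% in the other and 26% in all. The median over all genes was -0.17. With 200 genes changed in simulated counts, 16.5% of the calls of this test were false, above the threshold of 0.05. Gpx1 and Sod2 were lower in the high class in 8 of 8 libraries. In adult cTEC replicate 1 this rested on 10 Gpx1 and 7 Sod2 UMIs in 9 high cells. Their exact intervals there (77.8 to 298 and 45.7 to 234 CPM) include the low-class levels of 166 and 210 CPM. How many of all genes were lower in every library was not counted. Sod2 went from 285 to 190 CPM in E15.5 cTEC, from 197 to 129 CPM in E17.5 cTEC and from 280 to 185 CPM in NB cTEC. In adult mTEC the step was smaller, from 193 to 171 CPM and from 174 to 157 CPM. Cat was higher in the high class in 1 library, adult cTEC replicate 2 (14 UMIs), and had 0 UMIs in the 9 high cells of adult cTEC replicate 1, where the exact interval reaches 59.9 CPM. It was lower in the other libraries, and its step was largest in adult mTEC, from 34.4 to 16.7 CPM and from 32.9 to 15.2 CPM. In replicate 1 a single cluster led by Fabp6, of which 1.20% of cells had a high score, held 266 of the 519 Cat UMIs of the library.

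**Figure D4:**
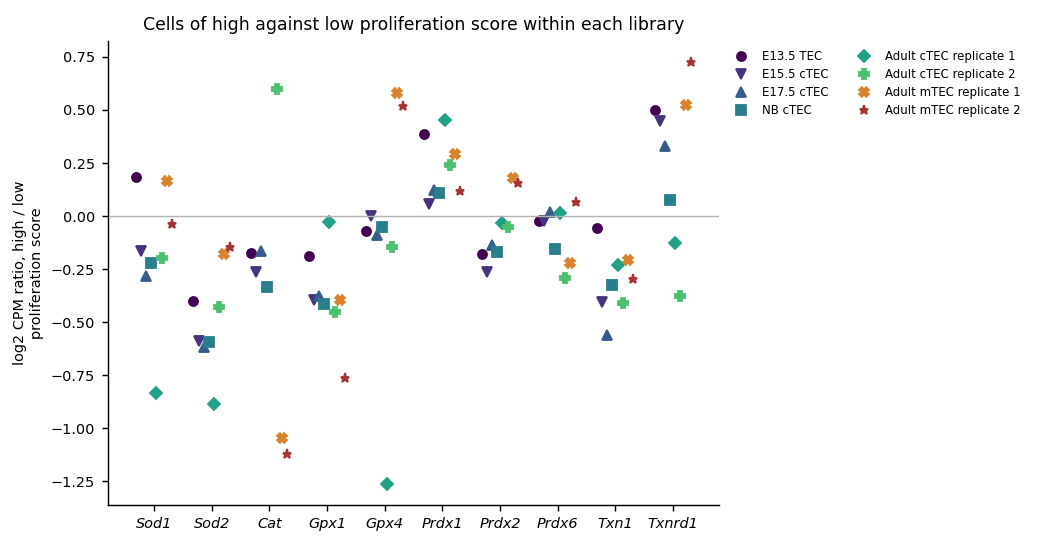
Log2 ratio of CPM in cells of high over cells of low proliferation score (vertical axis) for the 10 genes, one symbol per library. Gpx1, Sod2 and Txn1 lie below 0 in every library, Prdx1 lies above 0 in every library, and Gpx4 lies at 0.58 and 0.52 in adult mTEC and at or below 0.0026 elsewhere; Cat has no symbol for adult cTEC replicate 1, whose high class holds 9 cells and no Cat UMI.

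Txn1 was also lower in the high class in 8 of 8 libraries (-0.36 ± 0.14, edgeR adjusted p = 0.068), and Prdx1 was higher in 8 of 8 (0.17 ± 0.13, adjusted p = 0.35). Txnrd1 was higher in 6 of 8 libraries (0.36 ± 0.17, adjusted p = 0.12), at 172 against 122 CPM at E13.5. Sod1 and Prdx2 were higher in the high class in 2 of 8 libraries each and Prdx6 in 3 of 8, with log2 differences of -0.13 ± 0.16, -0.10 ± 0.14 and -0.10 ± 0.13 (edgeR adjusted p = 0.57, 0.64 and 0.61). DESeq2 called 6 members and 26.5% of all genes, with Txn1 and Prdx6 lower and Prdx1 and Txnrd1 higher beside Gpx1 and Sod2. With 1 library left out in turn, Gpx1 ranged from -0.48 to -0.39, Sod2 from -0.54 to -0.41 and Cat from -0.53 to -0.34. Over all 17 alternatives Gpx1 was called in 16, Sod2 in 14 and Cat in 10. Without NB cTEC no member passed (edgeR adjusted p = 0.057 for Gpx1), with 3838 of 16837 genes called. Without E15.5 cTEC 1 member passed, with 3631 of 16124 genes called. Without adult cTEC replicate 2 there were 5, with 4955 of 17105 genes called. Adult cTEC entered with 9 and 45 high cells.

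Gpx4 differed in its class effect between adult mTEC and the cortical line, of which 2 libraries were adult like the mTEC libraries and 4 were younger. In adult mTEC it was higher in the high class, at 1820 against 1218 CPM and 1470 against 1025 CPM. In the E13.5, E15.5, E17.5 and NB libraries the log2 ratio of the classes lay between -0.09 and 0.0026 (634 against 666 CPM at E13.5 and 653 against 676 CPM in NB), and in adult cTEC the high class was lower, at 292 against 700 CPM and 651 against 721 CPM. A test of the difference in class effect between adult mTEC and the cortical line, added after the data had been seen, gave a log2 value of 1.15 ± 0.25 (edgeR adjusted p = 0.0022). The same test called 22.4% of 16902 genes (14.9% with a higher class effect in mTEC and 7.53% with a lower one). With 200 genes changed in simulated counts, 19.6% of the calls of this test were false. Its median over all genes was 0.13 with TMM scaling and -0.34 with DESeq2, and relative to that median Gpx4 stood at 1.02 with TMM, 1.01 with RLE and 1.09 with DESeq2. With the 4 adult libraries alone, which share their age and data sets, the Gpx4 value was 1.54 ± 0.30 (edgeR adjusted p = 0.013, with 410 of 13407 genes and 2 members called), where adult cTEC held 9 and 45 high cells. Gpx4 passed in 12 of 12 alternatives of this test, with values of 0.72 to 1.54 and adjusted p-values between 0.00022 and 0.048. Of the other members, Sod2 (0.80), Prdx2 (0.76), Txnrd1 (0.75) and Sod1 (0.64) also passed with TMM; Prdx2 and Sod2 also passed with DESeq2 (12.7% of all genes called), whereas Sod1 and Txnrd1 did not and Cat passed in the opposite direction (-0.90). In the test with TMM, 10 of 11 thymocyte, 4 of 10 myeloid and 4 of 8 erythroid markers had a lower class effect in mTEC. So had 4 of 9 mTEC III, 3 of 7 mesenchymal, 2 of 6 parathyroid, 2 of 5 thyroid and 2 of 5 neural crest markers. Of 20 dissociation stress genes 4 were higher and 0 lower. Of 32 glutathione genes 8 were higher and 10 lower, of 28 NRF2 genes 4 and 3, and of 20 sources of reactive oxygen 0 and 3. Cell cycle genes differed too, with 28 of 52 G2M genes lower and 3 higher (median -0.88) and 12 of 42 S phase genes higher and 2 lower. The part of these lists in the result was not tested.

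In the other lists, against a background of 17.3% lower and 8.65% higher in the high class, 7 of 28 NRF2 genes were lower and 1 higher, 6 of 32 glutathione genes lower and 1 higher, and 6 of 17 other thioredoxin and peroxiredoxin genes lower and 1 higher. Of 20 sources of reactive oxygen 8 were lower, of 27 peroxisome genes 4 and of 6 copper genes 3, with 0 higher in each. Of 14 iron, haem and metallothionein genes 2 were higher and 1 lower, and of 6 selenoprotein genes 1 was higher and 1 lower. Srxn1, the sulfiredoxin that restores overoxidised peroxiredoxins, fell by 1.27 (edgeR adjusted p = 1.0e-05), and Prdx4 was the one of its list that rose (1.25, adjusted p = 6.8e-07). Ncf1 and Hmox1 had larger falls than Srxn1 (-1.76 and -1.31). All 9 cTEC markers were lower in the high class as well, with a median of -0.84, 10 of 20 dissociation stress genes were lower with 1 higher, and 7 of 8 erythroid and 4 of 10 myeloid markers were lower. So were 8 of 10 mTEC IV markers (median -1.69), 5 of 9 mTEC III, 3 of 8 mTEC II and 2 of 7 mTEC I markers, 4 of 8 endothelial markers (median -1.49) and 4 of 6 epithelial markers, with 1 epithelial marker higher. Their part in the member differences was not tested.

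The members were then described over clusters of adult mTEC. Each library was clustered on its own from the cells' expression, members included, so the values are descriptions without a test. Clusters were called mTEC I-like (the Ccl21a-expressing type), mTEC III-like (keratinised cells past the Aire stage) or mTEC IV-like (tuft-like) only where more than 50% of the markers of that type, and no other type's, were raised at least 2-fold over the other cells.

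Gpx1 ranged from 263 to 832 CPM over the clusters of replicate 1 and from 293 to 1812 CPM over those of replicate 2. The top of replicate 2 was an unnamed cluster of 146 cells led by Guca2b, Apoc3 and Guca2a, genes of gut epithelium, followed by an unnamed cluster of 94 cells led by Ccl6, Ccl20, Ccl9 and Gp2 (1657 CPM). The mTEC III-like cluster of replicate 2 came next, at 915 CPM (309 cells). In replicate 1 the mTEC III-like cluster was the highest, at 832 CPM (132 cells). At a clustering resolution of 0.4 in place of 0.8, the cluster of replicate 1 with raised mTEC III markers held 467 cells at 506 CPM and was led by Pcp4, Pyy and Reg3g with 4 mTEC II markers raised too, and in replicate 2 the cluster with Guca2b among its leading genes held 825 cells at 922 CPM, while the Ccl6-led cluster stood at 1659 CPM and the mTEC III-like cluster at 921 CPM. In mTEC I-like clusters Gpx1 was at 299 to 328 CPM over both replicates at resolution 0.8.

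Gpx4 had another order. It was highest in replicate 1 in a cluster of 86 cells led by Ube2c and Birc5, of which 97.7% had a high proliferation score (2019 CPM), and in a cluster led by Rhox12 and Thrsp of which 9.40% did (1897 CPM). In replicate 2 the highest was again the cluster led by cell cycle genes (Hist1h2ap, Rrm2 and Top2a, 803 cells, 1614 CPM), followed by a cluster of 23 cells led by Dynlrb2 (1443 CPM) and a Thrsp-led cluster (1337 CPM). The mTEC I-like clusters held 765 to 921 CPM and the mTEC III-like clusters 908 and 802 CPM.

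Prdx6 was above its level in the whole library (225 and 174 CPM) in the mTEC I-like clusters, with 347 and 439 CPM in replicate 1 and 417 and 401 CPM in replicate 2. It was at 91.4 to 101 CPM in the unnamed clusters led by Fabp6, by Rhox12, by Mt4, by Resp18 and by Thrsp, and at 86.9 CPM in one of 98 cells led by Car8. Other clusters of replicate 1 were higher still: an unnamed one of 106 cells led by Igfbp5 and Wfdc18 had 517 CPM, and the 13 mTEC IV-like cells had 522 CPM with an interval of 398 to 674 CPM. Cat reached its highest levels in unnamed clusters led by Fabp6, Sprr2i and Prss29 in replicate 1 (333 cells, 70.9 CPM, interval 62.7 to 80.0) and by Mt4, Xcl1 and Calb2 in replicate 2 (1167 cells, 44.6 CPM, interval 41.2 to 48.1); S100a8, S100a9, Prss29 and Rarres1 were among the leading genes of both. The cell cycle clusters had 10.6 and 15.7 CPM of Cat. Txn1 was highest in the mTEC III-like cluster of replicate 1 (2158 CPM), whereas the mTEC III-like cluster of replicate 2 had 1328 CPM, the Resp18-led cluster 2155 CPM and the Dynlrb2-led cluster 2198 CPM.

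**Figure D5:**
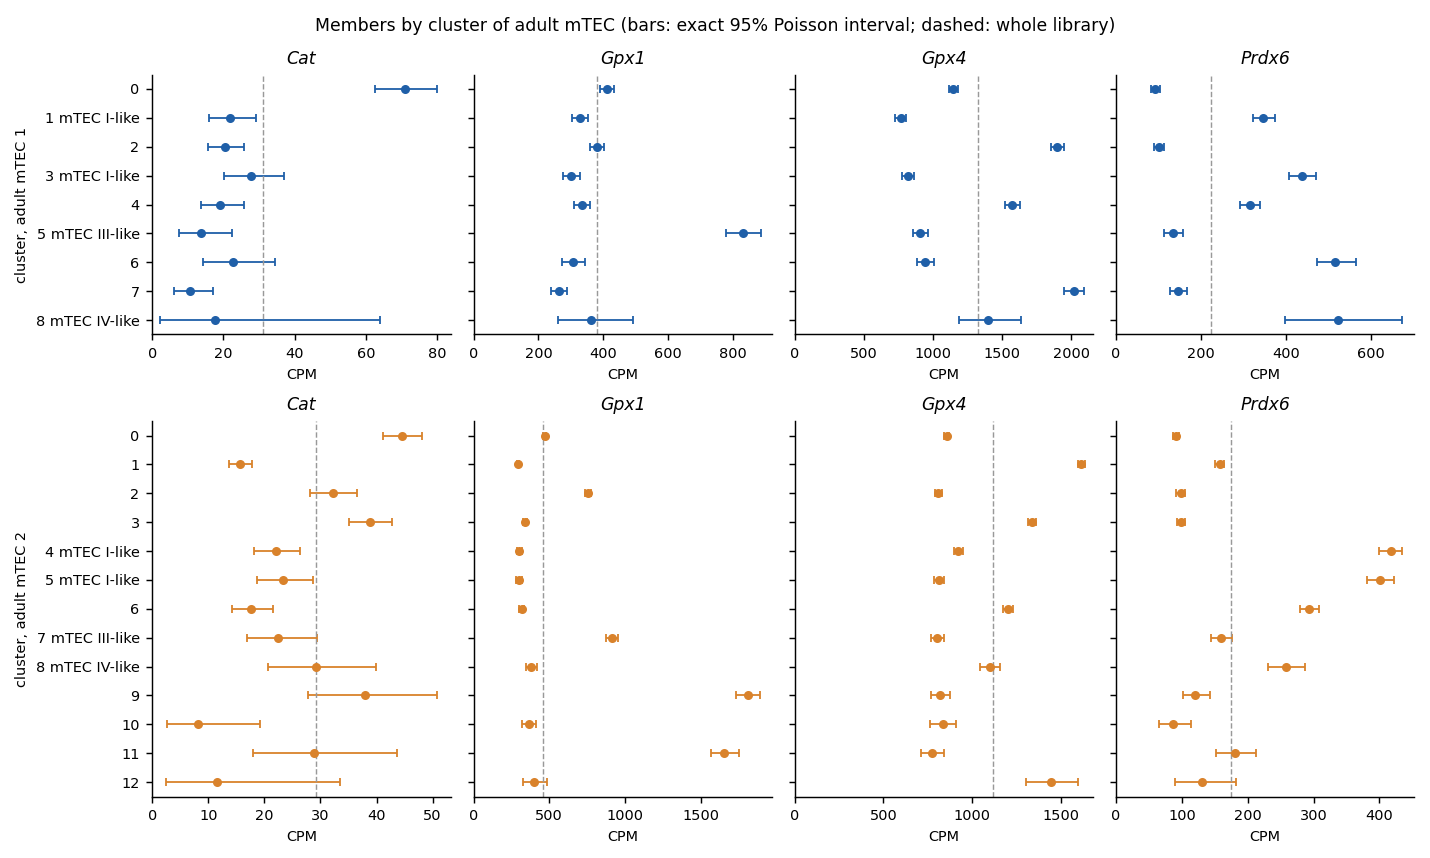
CPM of Cat, Gpx1, Gpx4 and Prdx6 (horizontal axes, from 0) in each cluster of adult mTEC replicate 1 (top) and replicate 2 (bottom), with exact 95% Poisson intervals; dashed lines give the whole library. Prdx6 lies above the whole library in the mTEC I-like clusters (347 to 439 CPM) and is highest at 522 CPM in cluster 8 of replicate 1, Gpx1 reaches 1812 CPM in cluster 9 of replicate 2, and Gpx4 is highest in cluster 7 of replicate 1 and cluster 1 of replicate 2, both led by cell cycle genes.

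The genes whose levels most resembled each member over the 8 libraries were sought among 2983 genes with a mean of at least 50 CPM, by Pearson's r of log2(CPM + 10). These are descriptions over points that share data set and depth. Sod1 was most like Alcam (r = 0.98), Ly75 (0.98) and Ccl25 (0.96), of which Ly75 and Ccl25 are markers of cTEC. Gpx1 was most like Saa3, Sh3bgrl3 and Fabp6 (0.99 each), Gpx4 like Cnp (0.98), S100a14 and Rab5c (0.97 each), and Cat like Mrpl32 (0.97), Ly6h and Csnk2b (0.95 each). Txnrd1 was most like Ddx1, Lyar and Rwdd1 (0.98 each), Prdx6 like Lsm3 (0.96), Ptges3 and Cbx1 (0.95 each), Prdx1 like Zwint (0.99), Svbp and Mrpl41 (0.98 each), and Prdx2 like Cops6, Lage3 (0.99 each) and Akt1s1 (0.98). Sod2 was most like Anxa7 (0.93), Tmbim6 (0.92) and Sdhaf4 (0.91), and Txn1 like Dph5 (0.97), Lamtor4 (0.94) and Scp2 (0.93).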

How the data were processed

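Libraries were made with 10x Chromium v2 chemistry, and the authors deposited UMI counts per gene and cell. The submitters' processing notes name Cell Ranger 2.0.1, STAR 2.5.1b, bcl2fastq 2.17 and mm10, whereas the matrix headers of data set 2 give software version 3.0.1. The study removed cells over 5% mitochondrial UMIs or 5000 genes, and these limits were applied again. Genes were joined by Ensembl identifier. Cells were clustered per data set (2000 variable genes, 20 components, Leiden, resolution 0.8), and clusters with markers of other cell types were left out. No doublet caller was run. Doublets were limited by the gene maximum alone. Counts were summed per library, or per library and proliferation class (score of 94 cell cycle genes above 0), and tested with edgeR 4.0.16 (filterByExpr, TMM, quasi-likelihood, adjusted over all genes). Scripts were tested on simulated data. Libraries are the replicates: nothing states that the adult replicates came from separate animals beyond their data sets. The p-values rest on the spread between these libraries, which edgeR draws towards that of other genes of similar level. With few residual degrees of freedom, as in the adult comparison, the SE and p of a member lean on that shared spread. Each edgeR SE was computed from the log2 value and the F statistic. Depth per library is given with the cells; intervals cover counting error only. Alternatives were DESeq2, RLE scaling, other scalings, filters, cells and libraries. All 10 members were named in every comparison. From each other antioxidant list up to 3 genes per direction were drawn, those with the largest change among genes past the threshold with average log2 CPM above 4. These were named in the age trend and the adult comparison. For the proliferation classes only Srxn1, Prdx4, Ncf1 and Hmox1 were named, and for the difference in class effect none. The 3 nearest genes per member were named as well. The members, lists and tests were chosen with earlier results of these data known. Cell Ranger leaves out reads that map to several annotated genes, so a member with a copy counted as a gene may be undercounted. Of the copies looked up, only Prdx6b was in the matrices, at no more than 2.32 CPM. Gpx4-ps2, Prdx2-rs3, Prdx6-ps2 and Txn-ps1 were not. Transgenic and bulk samples of the study were not analysed here.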

Additional observations from a re-analysis of the deposited data

Results flagged for a closer look

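5 of 10 members had a class effect (high minus low proliferation score, log2) that differed between adult mTEC and the cortical line in the test added after the data had been seen, which called 22.4% of all genes, 14.9% in the direction of these members. The difference, adult mTEC minus cortical line, was 1.15 ± 0.25 for Gpx4, 0.80 ± 0.20 for Sod2, 0.76 ± 0.18 for Prdx2, 0.75 ± 0.23 for Txnrd1 and 0.64 ± 0.23 for Sod1 (edgeR adjusted p = 0.0022, 0.0070, 0.0050, 0.021 and 0.044). Relative to the median over all genes these were 1.02, 0.68, 0.63, 0.63 and 0.52. Of 12 alternatives, Gpx4 passed in 12, Prdx2 in 8, Sod2 in 7, Txnrd1 in 5, Sod1 in 3, Txn1 in 2 and Prdx1 and Prdx6 in 1 each, whereas Cat passed in 5 with the opposite sign (-1.06 to -0.42 over the 12). The difference was higher in adult mTEC for 66.4% of the genes called with TMM, against 32.8% with DESeq2 and 24.7% with RLE scaling. With 200 genes changed in simulated counts, false calls made up 19.6% of those of this test (16535 genes), 16.5% for the proliferation classes (16494 genes) and 6.64% for the age trend (13975 genes), all above the adjusted p threshold of 0.05, and 2.87% for the adult comparison (15103 genes).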

How the results depend on the processing

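No group before adulthood had a replicate, so stage and library cannot be told apart there, and adult cTEC replicate 1 held 9 high-score cells. The alternatives that leave out a library of the adult comparison were fitted without the data set term, chosen after seeing the data, since 3 libraries leave no residual degrees of freedom with it.

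For the age trend, 0 members passed under each of 15 alternatives. The count of genes was 2836 with DESeq2, 651 with low-score cells only, 413 in data set 1 only and 13 for fetal against postnatal, and 16 to 456 when an adult cTEC replicate was left out. Slopes changed sign for Sod2 (-0.036), Gpx1 (-0.025) and Txn1 (-0.019) without E13.5, for Gpx4 (0.025) without the data set term and for Prdx1 (0.013) in low-score cells; with 1 adult cTEC replicate left out, Cat ranged from -0.087 to 0.052 and Prdx1 from -0.079 to 0.039.

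For adult cTEC against mTEC, DESeq2 called 2574 genes, and 1020 to 2874 were called with 1 library left out, with 0 members in each of those 4 fits; without the filter on low counts 1 member (Gpx1) passed. The fit without the filter called 4706 of 23890 genes. Txn1 was 0.019 with Psmb11 or Prss16 cells only, and Txnrd1 -0.033 without the filter and -0.047 with all deposited cells. With 1 library left out, Prdx2 ranged from -0.45 to 0.028, Txn1 from -0.55 to 0.26 and Txnrd1 from -0.063 to 0.067.

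For the proliferation classes, 6 members were called with DESeq2 (4478 of 16902 genes) and 5 with RLE scaling (5672 of 16902 genes). There were also 5 with scaling without ribosomal, mitochondrial and stress genes (5248 of 16733 genes) and with all deposited cells (5360 of 17035). The same number was called with every cluster kept (5351 of 16962) and with the Otsu threshold (5382 of 16527). Without E15.5 there was 1 (3631 of 16124 genes), and without NB 0 (3838 of 16837). With an adult library left out there were 2 to 5, with 3707 to 4955 genes called, and Gpx4 ranged from -0.12 to 0.12. For the difference in class effect, 2142 genes were called with DESeq2, 410 in the adult libraries alone (an alternative chosen after seeing the data, with 2 members, Gpx4 and Txnrd1), 1677 without E17.5 and 1456 to 4017 with an adult library left out. The members called were 3 with RLE scaling, 8 without E13.5, 2 without E17.5, 3 without NB and 1 to 5 with an adult library left out. Genes called were 3180 of 16902 with RLE scaling, 5266 of 16900 without E13.5, 1677 of 15731 without E17.5 and 2813 of 16837 without NB. Gpx1 was -0.22 with DESeq2 and with RLE scaling, -0.19 without E17.5, and -0.33 to 0.18 with an adult library left out. Of the recomputed member differences, 472 kept their direction and side of the threshold, 45 lost their call, 31 gained one and 22 changed sign. An alternative chosen after seeing the data left out the thyroid-led cluster. It called 0 members in the age trend, 3 in the proliferation classes and 6 in the class effect. Genes called were 1174 of 14285, 4418 of 16847 and 3985 of 16847, in that order. Txn1 was the member added in the class effect (0.55, edgeR adjusted p = 0.045). Shares of cells moved in 158 cases and kept within their interval in 2 when cells were thinned to 1000 UMIs or not thinned, since the number of UMIs sets them. The replicate number of the adult libraries is their data set, so the adult fit with the data set term is the paired one. Without this block 4145 genes and 2 members passed, Gpx1 at -1.37 (edgeR adjusted p = 0.027) and Sod1 at 1.01 (adjusted p = 0.048).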
